A study of Ascaris suum with 62 samples.

Results

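In *Ascaris suum*, the large roundworm of pigs, 1342 windows of 20 kb carried CENP-A at every stage examined, among 13765 windows that could be scored (9.75%). The windows were cut from the start of each scaffold, and those under 5 kb or touching a peak that the authors marked as eliminated DNA were set aside. "Cover" is the percent of a window's length inside CENP-A peaks, and a window was kept when its cover was at least 5% in each of 12 peak lists. The kept windows, called constant windows here, span 26.8 Mb on 161 of the 552 scaffolds with an eligible window. The windows were chosen by their cover in all 12 lists, so cover is described, and no test of it is used as support. Scaffold length is the last peak end over the 12 lists, so the stretch beyond the last peak of a scaffold was not scored.

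CENP-A, a variant of histone H3, is found in centromeric chromatin, where the kinetochore is built on it. In nematodes with holocentric chromosomes it lies along the length of the chromosome and not at a single site. In *Ascaris* part of the germline genome is discarded from somatic cells during early cleavage, and a piece of chromosome needs a kinetochore to be passed on at division.

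The data are CENP-A ChIP-seq, the sequencing of DNA pulled down with the histone, with 2 libraries for each of 12 stages. The stages were testis 1 to 3, ovary 1 to 3, embryos at 0hr, 46hr and 60hr (the hours lists), and embryos at 5day and 7day with L1 larvae (the late lists). The 0hr embryos were fertilized eggs from the uterus, and the later embryos were incubated eggs. The labels name no strain, and do not say what the gonad numbers mean or how many animals were pooled. Each numbered gonad sample is called a stage here for short, though no label says that it is one. The labels give testis, ovary and embryo as tissues, with L1 under embryo, so the share of cells with CENP-A at a site and the amount per cell cannot be told apart. Each stage has 1 peak list with the reads of both libraries counted per peak. There is thus no error for a single list, and each SD is over lists. The 12 lists hold 163819 peaks, and reads in peaks ran from 1005578 to 14901685 per library. One list stands apart. In testis3 the reads per kb of the 2 libraries correlated at only 0.174 over constant windows, against 0.624 in ovary2 and 0.827 to 0.970 in the other 10 lists. Testis3 was also the list with the fewest peaks (9197) and the shortest covered length (19.0 Mb). Without it the same rule gave 1835 constant windows.

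Constant windows were covered to different depths at different stages. In testis the median cover was 43.2% in list 1, 46.2% in list 2 and 22.8% in list 3. In ovary it was 30.3%, 28.5% and 37.6% in lists 1, 2 and 3. Cover was higher in every embryo list than in any gonad list. For 0hr, 46hr and 60hr the medians were 49.7%, 57.3% and 59.0%. For 5day, 7day and L1 they were 52.3%, 48.3% and 48.5%. Averaged over lists, the mean cover of constant windows was 37.1% ± 8.12 in gonads (SD, n = 6), 55.1% ± 4.50 in the hours lists (SD, n = 3) and 50.5% ± 1.99 over late lists (SD, n = 3). The same order held in the other eligible windows, at 8.97% ± 3.77 in gonads, 17.4% ± 0.787 in the hours lists and 13.3% ± 0.611 in the late lists. The constant windows were 9.75% of the eligible windows and held between 23.3% (0hr) and 39.3% (ovary2) of the covered length of eligible windows. They held between 24.5% (0hr) and 40.2% (ovary2) of the reads in that length.

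**Figure D1:**
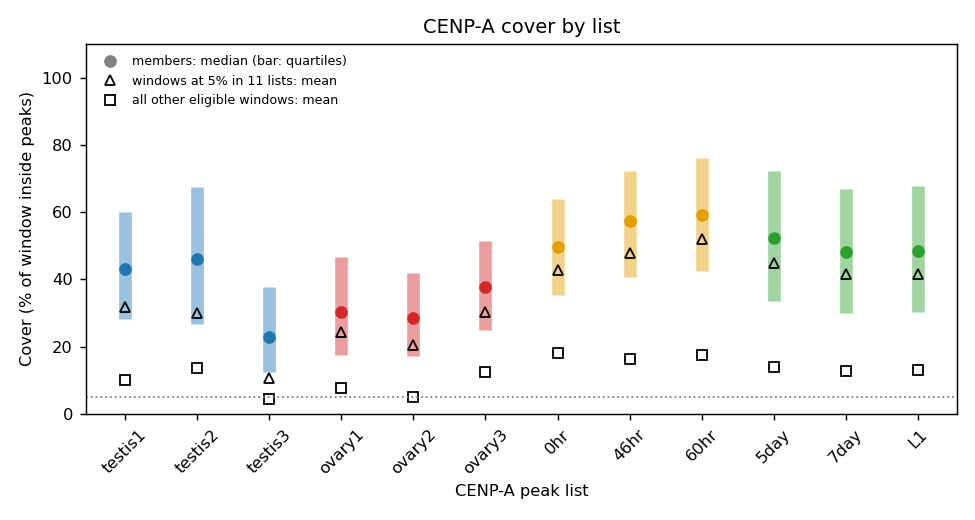
Cover (percent of a window inside peaks) in each of the 12 CENP-A lists. Coloured points are the median of the 1342 constant windows and bars their quartiles, triangles the mean of windows that reach 5% in 11 lists, squares the mean of all other eligible windows, and the dotted line the 5% threshold. The medians lie between 22.8% in testis3 and 59.0% at 60hr, with every gonad list below every embryo list.

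Cover also varied from window to window. The lowest cover over the 12 lists had a median of 11.9% and the mean cover a median of 44.8%, with a range of 11.4% to 93.4%. The ratio of a window's highest to its lowest cover had a median of 5.64 and ran from 1.25 to 19.7. A cover of at least 10% in every list was met by 791 constant windows, 20% by 341, 30% by 139, 40% by 43 and 50% by 15. Only 1 window reached 70%.

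Membership was set mostly by gonad lists other than testis1. The lowest cover of a constant window was in testis3 for 433 windows (32.3%), in ovary1 for 232, in ovary2 for 208, in testis2 for 117 and in ovary3 for 94. It was in testis1 for 28 windows, more than at 0hr (17) or 60hr (23) but fewer than at 7day (68), in L1 (66) or at 5day (44). It was at 46hr for 12 windows, the fewest of any list. A further 1016 windows (7.38% of the eligible ones) reached 5% in 11 lists. The list they lacked was testis3 for 493 of them (48.5%), ovary2 for 133, testis2 for 125 and ovary1 for 105. At the other end 1647 windows (12.0%) reached 5% in no list, and each number of lists from 1 to 10 held between 870 and 1168 windows.

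The threshold cut through a continuous range. Just inside it, the window at 140001–160000 of scaffold 74 had 5.005% in testis3, that at 1680001–1700000 of scaffold 22 had 5.01% in ovary1, and that at 200001–220000 of scaffold 42 had 5.01% in ovary1. Just outside it, the window at 1220001–1240000 of scaffold 32 had 4.995% in testis3, that at 300001–320000 of scaffold 108 had 4.995% in ovary1, and that at 2400001–2420000 of scaffold 23 had 4.975% in testis2. All 6 were well covered in some other lists. Some were also low in another gonad list, such as the scaffold 42 window with 8.485% in testis1 and the scaffold 32 window with 7.18% in testis2. The scaffold 74 window, inside, had 98.7% at 60hr, and the scaffold 23 window, outside, had 94.4% at 5day.

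Being covered in every list did not mean that the same bases were covered. A median of 91.7% of a constant window lay inside a peak in at least 1 list, against 40.4% in the other eligible windows. Bases inside a peak in all 12 lists made up 1.09 Mb, or 4.05% of the length of constant windows and 4.70% of the length covered in any list. Of the 1342 windows, 723 (53.9%) held at least 1 such base and 619 held none. In those 619 the deepest base was covered in 11 lists for 333 windows, in 10 for 167, in 9 for 83, in 8 for 28 and in 7 for 8. Such bases were rare elsewhere: 35 of the other eligible windows (0.282%) held any. Of the 1.10 Mb found on all scaffolds, 98.6% lay in constant windows. A window with such a base has some cover in all 12 lists, so this largely follows from the rule. Without testis3, bases covered in all remaining lists came to 1.61 Mb in constant windows. At bases covered in 11 lists the absent list was testis3 for 33.5% of the length, testis2 for 16.7% and ovary1 for 11.9%.

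**Figure D2:**
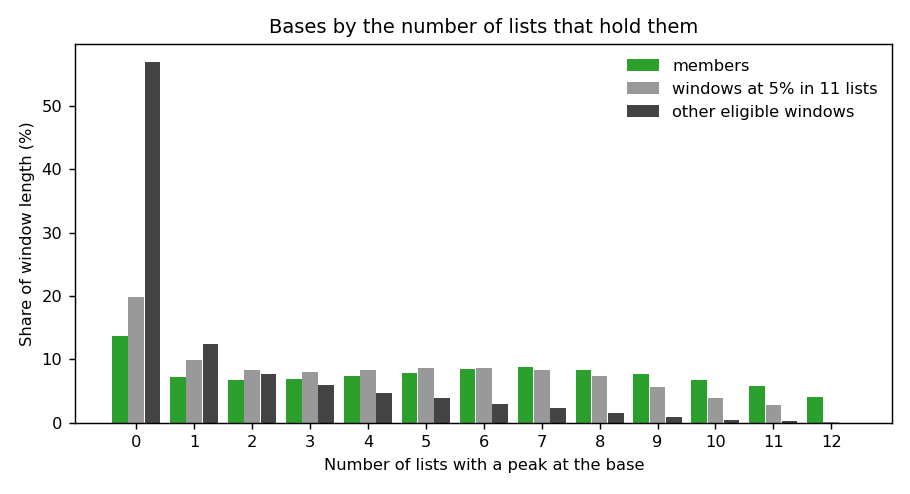
Share of window length (percent) by the number of the 12 lists with a peak at the base, for constant windows (green), windows that reach 5% cover in 11 lists (grey) and all other eligible windows (black; this group includes the grey windows). In constant windows 13.8% of the length is in no list and 4.05% in all 12, against 56.9% and 0.00551% in the other eligible windows.

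The length covered in all lists of a class differed between classes. Within constant windows, as a share of the length covered in any list of the class, it was 25.6% for the 3 testis lists and 26.96% for the 3 ovary lists. It was 49.3% for the 3 hours lists and 63.4% for the 3 late lists. Over the 6 gonad lists it was 9.02%, and over the 6 lists of embryos and L1 29.7%; more lists lower this share, so it compares only classes of the same size. The Jaccard index of covered bases between single lists ran from 0.304 (testis3 with 7day) to 0.746 (5day with 7day). The closest list was not always of the same class. Testis1 had an index of 0.573 with ovary1, against 0.491 with testis2 and 0.411 with testis3. Ovary3 had 0.568 with 0hr, against 0.366 with ovary1 and 0.480 with ovary2. As a description over the 1342 windows, which share scaffolds and libraries, the rank correlation of cover was 0.847 to 0.905 between the late lists and 0.737 between testis1 and ovary1. The lowest rank correlation was 0.117, between testis2 and 7day.

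Stretches covered in all 12 lists were short. Those touching constant windows numbered 1045, with a median length of 819 bp and quartiles of 312 and 1445 bp, and 5 of all such stretches reached 5 kb. The longest, 9720 bp, lay at 184665–194384 of scaffold 42. Next came 8639 bp at 179063–187701 of scaffold 133, 5696 bp at 5480238–5485933 of scaffold 4, 5479 bp at 2328914–2334392 of scaffold 10 and 5121 bp at 2188783–2193903 of scaffold 16. By window, 412 constant windows held at least 1000 such bases, 16 at least 5000 and 2 at least 10000.

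The window with the highest lowest cover lay at 380001–400000 of scaffold 50. It was the most evenly covered by the ratio of highest to lowest cover (1.25). By SD of cover over the 12 lists (7.15) it was not, since the lowest SD of a constant window was 3.51. Its cover in testis 1, 2 and 3 was 100%, 82.6% and 100%, and in ovary 1, 2 and 3 it was 96.6%, 80.3% and 100%. At 0hr, 46hr and 60hr it was 86.1%, 96.5% and 90.8%, and at 5day, 7day and in L1 it was 100%, 90.7% and 96.8%. Gonad and embryo values overlapped, and 11297 of its bases were covered in all 12 lists, the most of any window. This even cover was not matched by an even read density. Relative to the median of all peaks of a list, its reads per kb of peak were 1.72, 1.78 and 1.36 in testis 1, 2 and 3, and 1.02, 0.928 and 1.18 at 5day, 7day and in L1.

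The window with the next highest lowest cover, at 540001–560000 of scaffold 82, had 69.8%, 93.0% and 77.6% in testis 1, 2 and 3 and 81.6%, 76.4% and 83.6% in ovary 1, 2 and 3. It had 84.2%, 94.2% and 85.6% in the hours lists and 91.9%, 91.9% and 91.5% in the late lists. Its 3 late values lay within 1 percentage point of each other, below the testis2 value and above those of the other gonad lists. The window at 540001–560000 of scaffold 51 had 98.4%, 91.5% and 76.2% in testis 1, 2 and 3 and 81.3%, 76.7% and 75.8% in ovary 1, 2 and 3. It had 78.9%, 69.3% and 89.2% in the late lists, which overlap with both gonads.

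The other windows among the 10 with the highest lowest cover were those at 680001–700000 of scaffold 70 (lowest cover 65.5%, at 0hr), 740001–760000 of scaffold 20 (65.3%, in testis3), 600001–620000 of scaffold 55 (64.96%, at 7day), 860001–880000 of scaffold 27 (63.1%, in testis3), 180001–200000 of scaffold 133 (60.9%, in ovary1), 160001–180000 of scaffold 206 (59.0%, in ovary3) and 180001–200000 of scaffold 42 (56.9%, in testis3). Their mean cover ran from 70.5% on scaffold 206 to 88.1% on scaffold 42. The bases they held in all 12 lists ran from 2502 on scaffold 206 to 10796 on scaffold 133. On scaffold 42 all of them formed the 9720 bp stretch given above, while the scaffold 133 stretch of 8639 bp began in the window before. By bases in all 12 lists, the 5 leading windows were those of scaffolds 50, 133, 42, 27 (8399 bases) and 20 (8245 bases).

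**Figure D3:**
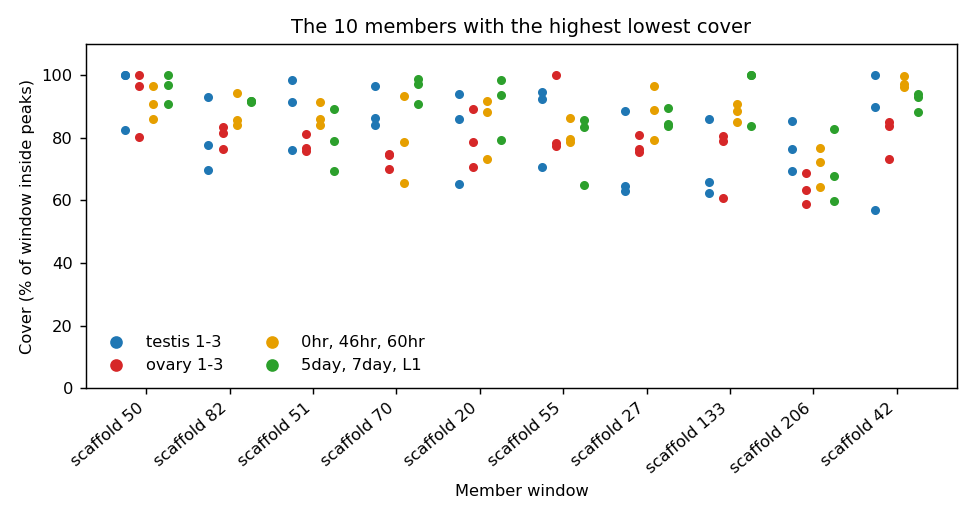
Cover (percent of the window inside peaks) in each of the 12 lists for the 10 constant windows with the highest lowest cover, in order of that value from left to right and named by scaffold. Each point is 1 list, coloured by class. The lowest point falls from 80.3% on scaffold 50 to 56.9% on scaffold 42, and gonad and embryo points overlap in most windows.

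Constant windows lay in small groups along the scaffolds. They formed 921 runs of neighbouring windows, of which 623 were single windows, 208 had 2 windows, 65 had 3, 18 had 4, 6 had 5 and 1 had 6. A neighbour that was also constant was found for 53.6% of constant windows and for 13.8% of the other eligible windows. Of all neighbours of constant windows, 31.7% were constant, against 9.75% of eligible windows. A peak that spans a window border counts in both windows. Between runs on a scaffold the median gap was 120 kb, with quartiles of 60 and 240 kb and a longest gap of 1540 kb.

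The longest run, of 6 windows, lay at 440001–560000 of scaffold 24. Its cover over the 120 kb was 29.7%, 53.9% and 27.7% in testis 1, 2 and 3 and 14.6%, 24.9% and 39.8% in ovary 1, 2 and 3. It was 46.3%, 52.1% and 51.2% in the hours lists and 56.2%, 47.2% and 49.2% in the late lists. Ovary1 was the lowest list, and testis2 reached the level of the embryos. Only 1784 bases of this run were covered in all 12 lists.

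The 4 named runs of 5 windows were those at 4620001–4720000 of scaffold 4, 2220001–2320000 of scaffold 11, 1920001–2020000 of scaffold 18 and 560001–660000 of scaffold 17. Their mean cover in gonads was 44.5% ± 11.2, 43.5% ± 14.0, 47.3% ± 18.3 and 40.1% ± 10.4 (SD, n = 6), in that order. In the late lists it was 52.0% ± 6.70, 52.2% ± 3.35, 69.9% ± 5.02 and 53.8% ± 8.36 (SD, n = 3). The lowest list was ovary2 in 3 of these runs and testis3 in the run on scaffold 11. The run on scaffold 18 had 81.7% in testis2 and between 31.9% and 48.9% in the other gonad lists.

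Away from constant windows cover dropped within 1 or 2 windows. In testis the mean cover was 39.8% in the constant windows, 15.6% in windows 20 kb away, 10.5% at 40 kb and 9.16% at 60 kb. In ovary it was 34.5%, 11.9%, 8.73% and 8.21% at the same distances. In the hours lists it was 55.1%, 24.04%, 17.6% and 17.1%, and in the late lists 50.5%, 20.6%, 12.2% and 11.4%. Over all eligible windows that were not constant, the means of testis, ovary, hours and late lists were 9.52%, 8.43%, 17.4% and 13.3%.

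**Figure D4:**
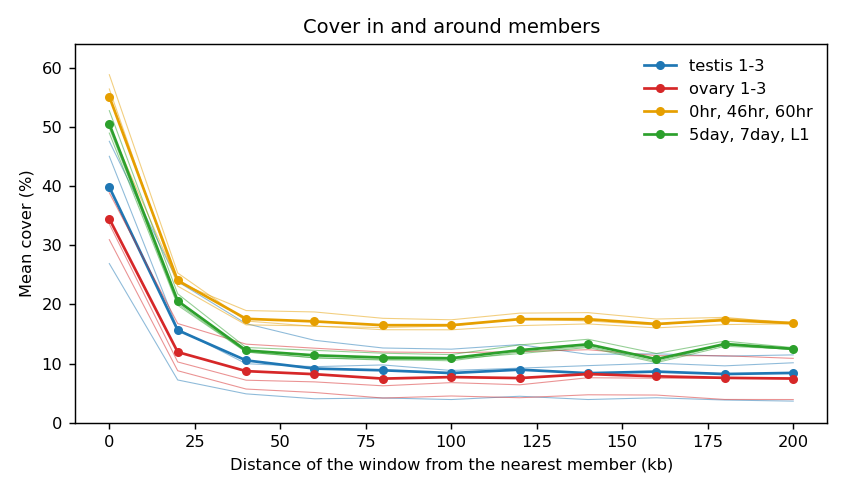
Mean cover (percent) of eligible windows by their distance in kb from the nearest constant window, from 0 (the constant windows) to 200 kb. Thick lines are the means of the 3 lists of a class and thin lines the single lists. Every class drops between 0 and 40 kb, from 55.1% to 17.6% in the hours lists and from 34.5% to 8.73% in ovary, and is then nearly flat. All windows beyond 0 kb failed the rule on cover, so the first drop follows in part from the rule.

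The share of constant windows was higher further from scaffold ends. They made up 4.84% of the 3367 eligible windows within 100 kb of an end, 10.2% of the 4825 between 100 and 500 kb and 12.3% of the 5573 further in. Scaffold size moves with this distance. On scaffolds of at least 1 Mb, which hold 72.0% of eligible windows, lay 85.7% of constant windows. Constant windows were also fewer near eliminated DNA, at 2.07% of the 338 eligible windows within 100 kb of a peak marked eliminated, 5.40% of the 537 between 100 and 500 kb and 9.62% of the 1226 further away. On scaffolds with no such peak they were 10.2% of 11664 windows. Scaffold ends and eliminated DNA were not separated in these counts.

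Of the 88 scaffolds of at least 1 Mb, 85 held a constant window. The share of constant windows per scaffold had a median of 11.9%, with quartiles of 6.08% and 15.01%. It was highest on scaffold 63, with 19 of 68 windows (27.9%), followed by scaffold 76 with 17 of 62 and scaffold 55 with 22 of 83. Scaffolds 35, 69 and 84 held none. Among the largest scaffolds, scaffold 1 held 15 constant windows in 390 (3.85%).

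Reads per kb of peak, which the rule did not use but which come from the same peaks, were higher in and around constant windows in every list. The ratio of the median density of peaks touching constant windows to that of peaks elsewhere in eligible windows ran from 1.08 (ovary1) to 1.20 (L1), and was above 1 in 12 of 12 lists in either library column. It was 1.10 ± 0.0212 in gonads (SD, n = 6), 1.12 ± 0.0298 in the hours lists (SD, n = 3) and 1.18 ± 0.0223 over late lists (SD, n = 3). Pooling reads over all peak length gave 1.00 (testis3) to 1.20 (5day). Peaks touching constant windows were also wider than the rest, by 1.25 times in testis3 to 1.84 times at 60hr in median width. Wide peaks fill more of a window, so part of this follows from the rule.

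Density was uneven among constant windows. The window at 2220001–2240000 of scaffold 29 had the highest density relative to the median peak of each list, with a geometric mean over the 12 lists of 6.34. Its relative density was 13.03, 12.6 and 13.8 in testis 1, 2 and 3, and 9.44, 5.11 and 3.28 in ovary 1, 2 and 3. It was 2.71, 8.91 and 10.3 at 0hr, 46hr and 60hr, and 3.18, 4.01 and 3.72 at 5day, 7day and in L1. Testis was above every other list, while the window's cover was low, between 8.68% (ovary1) and 45.5% (0hr). The next densest, at 760001–780000 of scaffold 39, had a mean of 2.24 that rested on single lists, with 14.1 in ovary2, 5.73 in testis3 and 6.21 in L1 but 1.06 to 1.15 in testis1, testis2 and the hours lists.

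The other 3 dense windows, at 1540001–1560000 of scaffold 52, 6500001–6520000 of scaffold 2 and 820001–840000 of scaffold 83, had means of 2.14, 2.12 and 2.06. On scaffold 52 density was 3.59, 2.49 and 2.15 in testis 1, 2 and 3 against 1.56, 1.52 and 1.70 in the late lists, and the groups did not overlap. The 860001–880000 window of scaffold 27, already named for its high lowest cover, had the opposite pattern. Its density was 1.78, 1.48 and 1.39 in testis 1, 2 and 3 and 3.73, 4.27 and 3.69 at 5day, 7day and in L1. The lowest means, 0.728 to 0.804, were in the windows at 180001–200000 of scaffold 79, 240001–260000 of scaffold 26, 1920001–1940000 and 5260001–5280000 of scaffold 2, and 660001–680000 of scaffold 72. None of these 5 held a base covered in all 12 lists, but neither did 619 of the 1342 constant windows, among them the dense window of scaffold 39.

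The first comparison asked which constant windows differed in reads between gonads and the late lists. Only reads inside peaks were counted, here and in the comparisons below. That count rises with cover, the value that chose the windows, so these tests are not independent of cover. Reads in peaks per window were tested with edgeR's quasi-likelihood test over 11025 windows, with Benjamini-Hochberg adjustment over all of them, and all 1342 constant windows passed the filter on low counts. In the late lists 55 constant windows were higher (4.10%) and 93 lower (6.93%), at an adjusted p under 0.05. The background was 7.34% higher and 5.73% lower over all windows tested, or 13.1% in either direction against 11.03% of constant windows (148). The median log2 fold change was −0.07 over constant windows and −0.53 over all windows. A window empty in any list cannot be a constant window, which bars the largest changes from the group.

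The 5 constant windows higher in the late lists with the smallest adjusted p had log2 fold changes of 2.35 to 2.67. At 60001–80000 of scaffold 237, CPM (a window's reads per 1000000 reads in peaks, after TMM scaling) was 127, 101 and 95.3 in testis 1, 2 and 3 and 186, 214 and 262 in ovary 1, 2 and 3. It was 282, 403 and 450 at 0hr, 46hr and 60hr and 684, 946 and 785 at 5day, 7day and in L1. Every late value was above every other one, with the hours lists between. The log2 fold change against gonads was 2.39 ± 0.31 (SE; adjusted p = 0.000953 by edgeR).

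At 1740001–1760000 of scaffold 19 the values were 134, 117 and 144 in testis, 57.7, 66.1 and 84.8 in ovary, 189, 303 and 418 in the hours lists and 499, 620 and 711 in the late lists. The classes did not overlap, and the log2 fold change was 2.67 ± 0.37 (SE; adjusted p = 0.00127 by edgeR). The windows at 1400001–1420000 of scaffold 49, 2600001–2620000 of scaffold 9 and 1760001–1780000 of scaffold 36 had log2 fold changes of 2.46, 2.40 and 2.35. In these 3 the late lists averaged 705 ± 128, 651 ± 50.6 and 475 ± 68.1 CPM (SD, n = 3). The gonads averaged 128 ± 39.0, 124 ± 32.9 and 94.1 ± 23.95 (SD, n = 6), with no overlap.

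Among the windows called lower, that at 720001–740000 of scaffold 98 had 608, 553 and 626 CPM in testis 1, 2 and 3 and 765, 739 and 351 in ovary 1, 2 and 3. It had 275, 256 and 216 at 0hr, 46hr and 60hr and 58.2, 60.5 and 84.5 at 5day, 7day and in L1. Reads fell from gonads through the hours lists to the late lists without overlap, by 3.16 ± 0.41 on the log2 scale (SE; adjusted p = 0.000964 by edgeR). Its cover was between 48.6% and 75.8% in gonads and between 19.1% and 30.4% in the late lists.

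At 1060001–1080000 of scaffold 14, CPM was 579, 392 and 434 in testis, 592, 385 and 328 in ovary, 257, 250 and 235 in the hours lists and 62.0, 23.1 and 29.5 in the late lists. The log2 fold change was −3.56 ± 0.51 (SE; adjusted p = 0.00153 by edgeR). The windows at 3740001–3760000 of scaffold 5, 340001–360000 of scaffold 24 and 1320001–1340000 of scaffold 22 had log2 fold changes of −3.20, −2.75 and −3.52. In the last of these testis spread widely, at 290, 536 and 900 CPM in lists 1, 2 and 3, but the late lists, at 47.9, 23.8 and 30.7, lay below every gonad value.

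**Figure D5:**
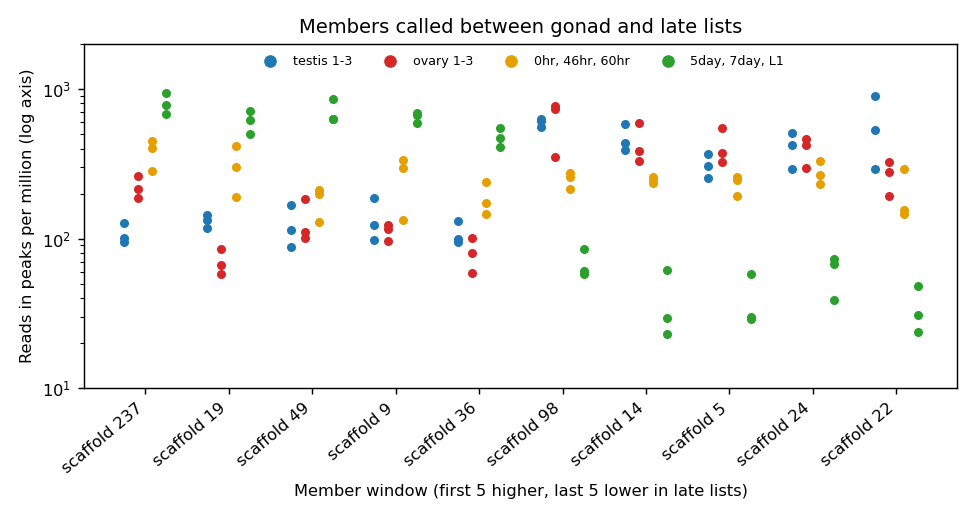
CPM (reads per 1000000 reads in peaks, log axis) in each of the 12 lists for the 10 named constant windows called between gonads and late lists, named by scaffold, the first 5 higher and the last 5 lower in the late lists. Each point is 1 list, coloured by class. Late and gonad points do not overlap in any of the 10, and the mean of the hours lists lies between those of gonads and late lists in each.

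The counts for gonads against late lists depended on single late lists. Without 5day 39 constant windows were called (2.91%, with 4.15% of all windows tested), without 7day 29 (2.16%, with 3.83%) and without L1 37 (2.76%, with 4.90%). Without ovary2 91 were called (6.78%, with 8.44% of all windows). Without testis3 172 were called (12.8%, with 10.5% of all windows), and without testis2 138 (10.3%, with 9.73%). In these 2 fits the share of constant windows was above that of all windows and not below it. As a description of the value that chose the windows, from which nothing is read, cover of the late lists lay wholly above that of the gonad lists in 353 constant windows (background 17%). It lay wholly below in 56 (background 3.85%), together 30.5% with a background of 20.9%.

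The second comparison set the late lists against the embryos timed in hours, which share the late lists with the first. By edgeR 1 constant window was higher (background 0.236%) and 5 were lower (background 1.42%) in the late lists, or 0.447% against a background of 1.66%. The share called was thus below that of all windows. Here too the rule bars windows empty in any list, and with them the largest changes, so nothing is read from the lower share. An unadjusted p under 0.05 was reached by 168 constant windows (12.5%) and by 21.7% of all windows. The median log2 fold change was 0.08 over constant windows and −0.71 over all windows.

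The window called higher, at 3720001–3740000 of scaffold 9, was low in the hours lists only. CPM was 552, 443 and 378 in testis and 544, 392 and 381 in ovary, 94.0, 107 and 80.8 at 0hr, 46hr and 60hr, and 319, 273 and 431 at 5day, 7day and in L1. Its cover was 27.2%, 30.1% and 29.8% in the hours lists, and between 39.995% (testis3) and 100% (5day) in the other 9. The log2 fold change of late lists against hours lists was 1.86 ± 0.41 (SE; adjusted p = 0.047 by edgeR).

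Of the 5 windows called lower, 3 are the scaffold 14, 5 and 24 windows named above, with log2 fold changes of −2.69, −2.57 and −2.20. The window at 440001–460000 of scaffold 39 had 292, 231 and 211 CPM in the hours lists and 21.8, 14.0 and 15.1 in the late lists, and that at 760001–780000 of scaffold 14 had 317, 257 and 188 against 27.6, 36.9 and 29.3. Their log2 fold changes were −3.85 ± 0.68 and −3.02 ± 0.59 (SE; adjusted p = 0.0135 and 0.0248 by edgeR). In both windows the hours and late lists did not overlap.

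These 6 calls were not stable. Without 46hr, 7day or L1 no constant window was called, with 1.11%, 1.16% and 1.29% of all windows called. Without 0hr 2 were called (0.149%, with 1.30% of all windows), without 5day 2 (0.149%, with 1.28%) and without 60hr 4 (0.298%, with 2.03%). With only the hours and late lists in the fit 324 were called (24.1%), 188 higher and 136 lower. Over all windows that fit called 28.1%, with 688 higher and 1686 lower. DESeq2 called 45 constant windows (3.35%) and 22.97% of all windows. Cover chose the windows, so its overlap is given as a description from which nothing is read. Cover did not overlap between late and hours lists in 551 constant windows, 41.1% with a background of 30.7%. Of these, 384 were lower (background 22.2%) and 167 higher (background 8.54%) in the late lists.

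The third comparison, ovary against testis, gave 2 constant windows higher (background 2.1%) and 1 lower (background 0.154%) in ovary by edgeR, 0.224% against a background of 2.26%. An unadjusted p under 0.05 was reached by 127 (9.46%) and by 18.5% of all windows. The bar on windows empty in any list holds here as well, so nothing is read from these lower shares. At 2180001–2200000 of scaffold 6 CPM was 54.8, 36.5 and 66.0 in testis 1, 2 and 3 and 320, 294 and 296 in ovary 1, 2 and 3. Testis was below all other lists, since the hours lists had 279 to 329 and the late lists 418 to 502. The log2 fold change was 2.53 ± 0.43 (SE; adjusted p = 0.00722 by edgeR).

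The window at 840001–860000 of scaffold 1 had the same order, with 139, 90.8 and 53.9 in testis and 411, 428 and 336 in ovary, and a log2 fold change of 2.05 ± 0.45 (SE; adjusted p = 0.0427 by edgeR). The window at 1160001–1180000 of scaffold 11 was lower in ovary, with 171, 458 and 250 in testis and 43.7, 35.0 and 60.2 in ovary, and 365 to 556 in the late lists. Its log2 fold change was −2.66 ± 0.53 (SE; adjusted p = 0.0224 by edgeR). In each of these 3 windows testis and ovary did not overlap.

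The number called was 21 without testis1 (1.56%, with 3.75% of all windows), 16 without ovary1 (1.19%, with 4.12%) and 1 without ovary2 (0.0745%, with 2.81%). It was 5 without testis2 (0.373%, with 2.39% of all windows) and 5 without ovary3 (0.373%, with 2.55%). With the 6 gonad lists alone in the fit edgeR called 0 of all 7790 windows tested, so its calls say nothing about constant windows in particular. In that fit 45 constant windows (3.35%) and 6.51% of all windows had an unadjusted p under 0.05. DESeq2 on all 12 lists called 36 constant windows (2.68%) and 16.96% of all windows. Scaling by RLE moved the median log2 fold change of all windows from 0.04 to 0.16. It gave 7 constant windows higher and 1 lower (0.596%), with 2.49% of all windows called. Nothing is read from the overlap of cover here either, since cover chose the windows. Ovary and testis cover did not overlap in 190 constant windows, 14.2% with a background of 9.71%. Of these, 136 were lower (background 5%) and 54 higher (background 4.71%) in ovary.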

How the data were processed

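CENP-A ChIP-seq of 12 stages was used, 24 of the 62 samples of the series, 2 libraries a stage; input, CENP-C and histone mark libraries were not analysed here. The deposited tables hold, per the file headers, the scaffold and both ends of a peak, 1 coverage column per library and the mark retained or eliminated. The coverage columns hold whole-number read counts per peak, not normalized by the authors. The submitters' processing notes name Bowtie2 and MACS2; versions, settings, use of the input and the base from which starts count are not given in the sources used here. The assembly is AgBionano_v1.9 by its scaffold names, and its sequence and genes were not used here, so no sequence is shown. Nothing tells the single-end from the paired-end column.

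Per library 1005578 to 14901685 reads lay in peaks, and depth outside peaks is unknown. The constant windows, lists and named regions were chosen with earlier results of these data known. Reads of a peak were shared out over windows by length and rounded. The list was the unit: its 2 columns were summed, and edgeR 4.0.16 (R 4.3.3; TMM, filterByExpr, quasi-likelihood test, Benjamini-Hochberg adjustment over 11025 windows, threshold 0.05) was fitted to 12 lists in 4 classes of 3, with SE as the log2 fold change over the root of F. Nothing says that libraries come from separate animals, so p-values measure the spread between lists of a class. Whether the gonad numbers are stages or replicates is not given. DESeq2 1.42.0 and limma 3.58.1 (on cover, for 11988 windows with a mean of at least 1%) were alternatives. Limma used the value that chose the windows. Reads in peaks, used by edgeR and DESeq2, rise with that value and are not independent of it. DESeq2, limma and the main test were also run on simulated data. The simulated counts spread far less than the real ones, whose fitted common dispersion was 3.18, so that check does not carry over to these data. Windows were named by rank: the 10 with the highest lowest cover, the 5 longest runs (ties by scaffold length), the 5 called with the smallest adjusted p in each direction, the 5 with the most bases in all lists, the 5 highest and 5 lowest in density, and 3 on each side of the threshold. Whether groups overlap was read from the values. Scripts ran in Python 3.11.15 with pandas 2.3.3, numpy 2.4.6 and matplotlib 3.10.9.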

Additional observations from a re-analysis of the deposited data

Results flagged for a closer look

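Within each value measured in all 6 gonad lists, the list furthest from the others was compared with the range of the 6, and 5 of 52 such checks passed the 95% critical value of Dixon's ratio, where chance gives about 1 in 20.

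The correlation between the 2 libraries over constant windows was lowest in testis3, at 0.174, against 0.624 to 0.886 in the other gonad lists. Cover of the scaffold 29 window at 2220001–2240000 was 28.7% in ovary3 and between 8.68% and 14.1% in the other gonad lists. Relative density of the scaffold 39 window at 760001–780000 was 14.1 in ovary2, against 5.73 in testis3, the next highest. Cover of the run at 1920001–2020000 of scaffold 18 was 81.7% in testis2, and the next highest was 48.9% in testis1. CPM of the scaffold 9 window at 2600001–2620000 was 187 in testis2 and between 96.3 and 124 in the other gonad lists. The last of these windows was still called higher in the late lists without testis2. The 2 cover values belong to windows chosen by cover and are given as a description. The cause of these 5 values was not tested.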

How the results depend on the processing

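The number of constant windows was 791 at a cover of at least 10% and 412 with peaks below their list's median reads per kb left out; it was 1563 at 2%, 1325 with windows shifted by 10 kb and 1343 with windows touching eliminated peaks kept, and from 1350 to 1835 without 1 list. Windows of 10 kb gave 1455 (14.5 Mb, 5.30% of eligible windows) and windows of 40 kb 964 (38.3 Mb, 13.8%), against 26.8 Mb (9.75%), so the length chosen depends on window size. Bases covered in all 12 lists fell to 0.470 Mb with the sparse peaks left out, since fewer peaks enter, and were 1.10 to 1.61 Mb without 1 list. The density ratio stayed between 1.10 and 1.11 in the median over lists.

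Shares of all windows tested stand in brackets after each count of constant windows. Between gonads and late lists, 148 calls (13.1%) became 230 with DESeq2 (36.01%), and 29 to 181 without 1 list (3.83% to 13.8%). The other settings of edgeR gave 111 to 154 (10.1% to 13.8%). Between hours and late lists, 6 calls (1.66%) became 45 with DESeq2 (22.97%), 2 with no filter on low counts (1.26%), 324 with only these lists in the fit (28.1%), and 0 to 4 without 1 list (1.11% to 2.03%). Between testis and ovary, 3 calls (2.26%) became 8 with RLE (2.49%), 36 with DESeq2 (16.96%), 0 with only these lists (0%), 11 with the second column (3.14%), and 1 to 21 without 1 list (2.01% to 4.12%). The planned limma fits used cover, the value that chose the windows, so nothing is read from them: in the same order of comparisons they called 390 (25%), 96 (13.1%) and 0 (0.450%), and with lists scaled to 1 covered length 205 (25.2%), 18 (6.73%) and 26 (3.76%). Apart from the settings that change which windows or lists are used, the cause was not tested. Of the values of named windows recomputed under other settings, 264 kept their direction and call, 51 kept the direction and missed the threshold, and 0 reversed. These are fold changes, except in the limma fits, where they are differences in cover from which nothing is read. Within these counts, limma on cover kept 16 and missed 3, and with lists scaled it kept 14 and missed 5.

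Testis and ovary share the numbers 1 to 3. Deviations from the tissue mean correlated at 0.248, 0.0264 and 0.122 between same-numbered lists in log2 reads, where testis2 correlated best with ovary3 (0.0947). In cover they correlated at 0.373, 0.0861 and 0.192, and there each testis list correlated best with the ovary list of its number, a hint from the data and not from the design. Since number 2 stayed under 0.1 in both, the numbers were not taken as pairs. With the number as a replicate block, 40 constant windows were called between testis and ovary (2.98%), 29 higher and 11 lower in ovary, with 6.55% of all windows called, 648 higher and 74 lower.

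Testis3 and ovary2 had the shortest covered lengths, 19.0 and 21.7 Mb. Reads outside peaks are not known, so depth and less CENP-A cannot be told apart there. One list per stage leaves peak calling in each stage without a replicate.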
